A study of Mus musculus with 9 samples.

Results

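The genes of the DNA replication machinery were examined by total RNA-Seq in the D3 line of mouse embryonic stem cells (mESC). The set was chosen by gene symbol and holds 44 genes, of 29069 genes in the deposited table, and all 44 were among the 18156 genes with a mean normalised count over 5 that entered the tests. A normalised count is a read count per gene divided by a size factor of the library. Cells were held for 24 h in 3 media, with 3 replicates per medium. The ground state medium (GS) was serum-free NDiff N2B27 with 1 µM PD0325901, a MEK inhibitor, 3 µM CHIR99021, a GSK-3 inhibitor, and 20 ng/mL leukemia inhibitory factor (LIF). The spontaneous differentiation medium (DM) was DMEM with 10% fetal bovine serum and 2-mercaptoethanol, without the inhibitors or LIF. The mesendodermal medium (NO) was DM with 250 µM of the nitric oxide donor DETA/NO. All cells came from this line, grown without feeder cells, and RNA was taken from a dish per sample. The study speaks of independent experiments in general, but the sample labels do not tie the replicates of this assay to separate cultures. If they were not separate, p-values measure the spread between these samples, which may be technical. DM against GS compares release from the inhibitors and LIF together with a change of basal medium and serum, which cannot be told apart, and NO against DM compares the donor alone.

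Replication starts at sites bound by the origin recognition complex, where Cdc6 and Cdt1 load the ring of Mcm2 to Mcm7 before S phase. Cdc45, the GINS complex and Mcm10 turn that ring into an active helicase. Primase and polymerase alpha then start each strand, polymerases delta and epsilon extend it on the PCNA clamp, and Fen1 and Lig1 join the lagging strand fragments. Many of these genes are transcribed at the entry to S phase through E2F factors, and mESC, which have a short G1 phase, are known for a high expression of them.

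Since many of these genes are known E2F targets, the promoters of the set were searched for the words TTTCCCGC, TTTCGCGC, TTTGCCGC and TTTGGCGC on both strands. RefSeq windows (GRCm38.p6) from 250 bases before to 50 bases after each annotated start were at hand for 36 of the 44 genes. A word was found for 15 of these 36 genes (41.7%), and for 4.42% of 11522 tested genes with a window. The CCAAT box was found for 63.9% of the replication genes and 42.5% of the tested genes, and the GC box GGGCGG for 75.0% and 65.8%. A GC box on the opposite strand can share letters with TTTCCCGC. A match is a description of the letters and not a bound site. Examples from helicase, origin, loading and polymerase genes, and from the genes that fell in NO and had a word (Pold3 and Lig1), are shown 5′ to 3′ on the strand of the gene with the word in capitals.
Mcm5, chr8:75109345-75109374, plus strand: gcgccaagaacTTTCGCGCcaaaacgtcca
Mcm6, chr1:128359797-128359826, minus strand: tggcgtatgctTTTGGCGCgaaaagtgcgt
Orc1, chr4:108579416-108579445, plus strand: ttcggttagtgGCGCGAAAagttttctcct
Cdc6, chr11:98908002-98908031, plus strand: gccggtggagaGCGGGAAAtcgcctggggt
Pola1, chrX:93632275-93632304, minus strand: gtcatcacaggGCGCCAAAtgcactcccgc
Pold3, chr7:100121467-100121496, minus strand: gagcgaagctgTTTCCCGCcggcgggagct
Lig1, chr7:13278841-13278870, plus strand: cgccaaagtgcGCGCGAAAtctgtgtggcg
The words of Mcm5, Mcm6, Orc1, Cdc6 and Pola1 lie before the RefSeq start of the window, and those of Pold3 and Lig1 lie 18 and 27 bases after it. In the GENCODE annotation Orc1 and Cdc6 start earlier, at 108579423 and 98907801, so that their words lie within the gene. For 35 of the 44 windows of the set, the first 30 bases after the start occur in a GENCODE transcript of that gene. The start used for Lig1 is the second of its 3 RefSeq windows, 1 of which held a word. Of the other genes of the set that fell in NO, Rfc1 and Pold2 had windows without a word, and Gmnn and Gins1 had no window.

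Libraries held an estimated 14310000 to 27080000 counted reads, and a read was worth 0.70 to 1.32 normalised counts. The second NO replicate stood apart. On the first principal component of all tested genes the NO replicates lay at 25.9, 131 and 67.1, the GS replicates between -49.1 and -41.5, and the DM replicates between -33.1 and -26.0. Summed markers of pluripotent cells were 82159 to 86006 in GS, 82743 to 93571 in DM, and 81597, 48492 and 78594 in NO. Summed primitive endoderm markers (6 genes) were 143 to 205 in GS, 111 to 192 in DM and 227 to 708 in NO, trophoblast markers (6 genes) 632 to 657, 166 to 238 and 320 to 1130, and fibroblast markers (8 genes) 99 to 122, 231 to 249 and 213 to 306. The sums join genes that differed in direction. In NO against GS the log2 fold change was above 0 for 2 trophoblast markers and below for 4. Krt7 had 4 to 15 in GS and 65 to 484 in NO, and Cdx2 46 to 75 and 3 to 14. Of 4 tested fibroblast markers, 2 were above 0 in DM against GS and 2 below. Thy1 had 59 to 60 in GS and 168 to 211 in DM. Of 9 markers of pluripotent cells, 6 were above 0 in DM against GS and 3 below, such as Nanog (-0.795). No endoderm or trophoblast marker was at 0 in all samples of a medium, and 1 fibroblast marker in GS and 2 in DM were. The part of these differences in the results below was not tested, and in these bulk samples fewer cells of a type and less RNA per cell cannot be told apart.

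Levels of the replication genes ranged widely in every medium. Per kilobase of exon, Mcm5 had the highest level, 5726 ± 166 normalised counts per kb in GS (SD, n = 3), and Orc4, a subunit of the origin recognition complex, the lowest, 138 ± 32.9, a ratio of 41.5. The length used was the union of all annotated exons of a gene. It was 7458 bases for Orc4, whose longest transcript has 4066, and 2422 bases for Fen1, whose longest has 2373. The order, the ratios and the lowest gene depend on this choice. Pcna (3854 ± 675 per kb in GS), Mcm3 (3688 ± 98.1) and Rrm2 (3213 ± 135) followed Mcm5. Among the 6 helicase subunits Mcm2 to Mcm7, which stand in equal number in the ring, the highest level per kb was 3.75 times the lowest in GS, 4.23 times in DM and 4.1 times in NO. The order of the 44 levels shifted little between media. The median change of rank was 1 place in each pair of media, and the largest changes were 5 places for Gins2 between GS and DM, 7 for Gins1 between GS and NO, and 6 for Pold2 between DM and NO. Exons of 16 of the genes overlap exons of other genes, most of all those of Fen1 (84.2% of its exon bases) and Gins2 (67.3%), and stretches of 50 bases in Mcm7 (34.2%) and Pcna (31.8%) also occur in other genes, so that the levels of these 4 genes are uncertain. To a lesser degree this holds for Orc2, Rfc2, Rfc4 and Pole2, with 21.6%, 19.8%, 11.1% and 11.8% of such stretches shared. Exon overlap was 10.8% for Orc1 and 10.7% for Rfc5.

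**Figure D1:**
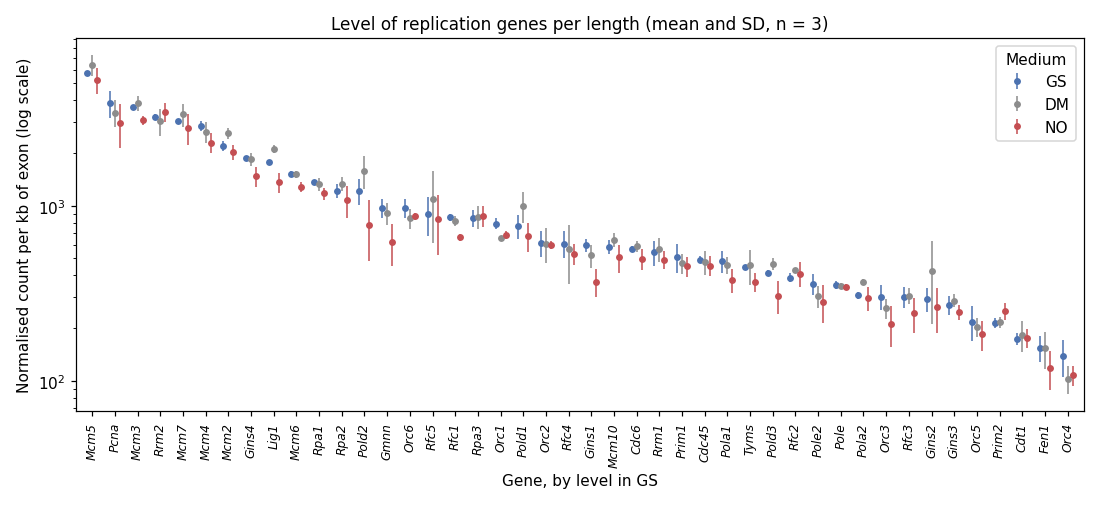
Level of each of the 44 replication genes in normalised counts per kb of exon (log axis), ordered by the GS mean, with a point and an SD bar (n = 3) for GS, DM and NO. Levels run from 5726 per kb for Mcm5 to 138 per kb for Orc4 in GS, and the media lie close together for most genes.

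In sum, the 44 genes took 0.956%, 0.988% and 0.982% of the library total for GS, 1.09%, 1.01% and 1.02% for DM, and 0.991%, 0.795% and 0.970% for NO. The second NO replicate was below the other 8 samples, which lay close together. Relative to the GS mean, the median log2 difference over the 44 genes was -0.10, -0.47 and -0.16 in the NO replicates, and it lay between -0.06 and 0.09 in the GS and DM samples. The second NO replicate had the lowest value of all 9 samples in 35 of the 44 genes (79.5%), against 24.1% of all tested genes and 35.6% of the 8083 genes with a mean at or above the lowest of the set (344.1). The 9 exceptions were Orc1, Orc2, Orc4, Orc6, Cdt1, Cdc45, Rfc4, Prim2 and Rrm2.

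**Figure D2:**
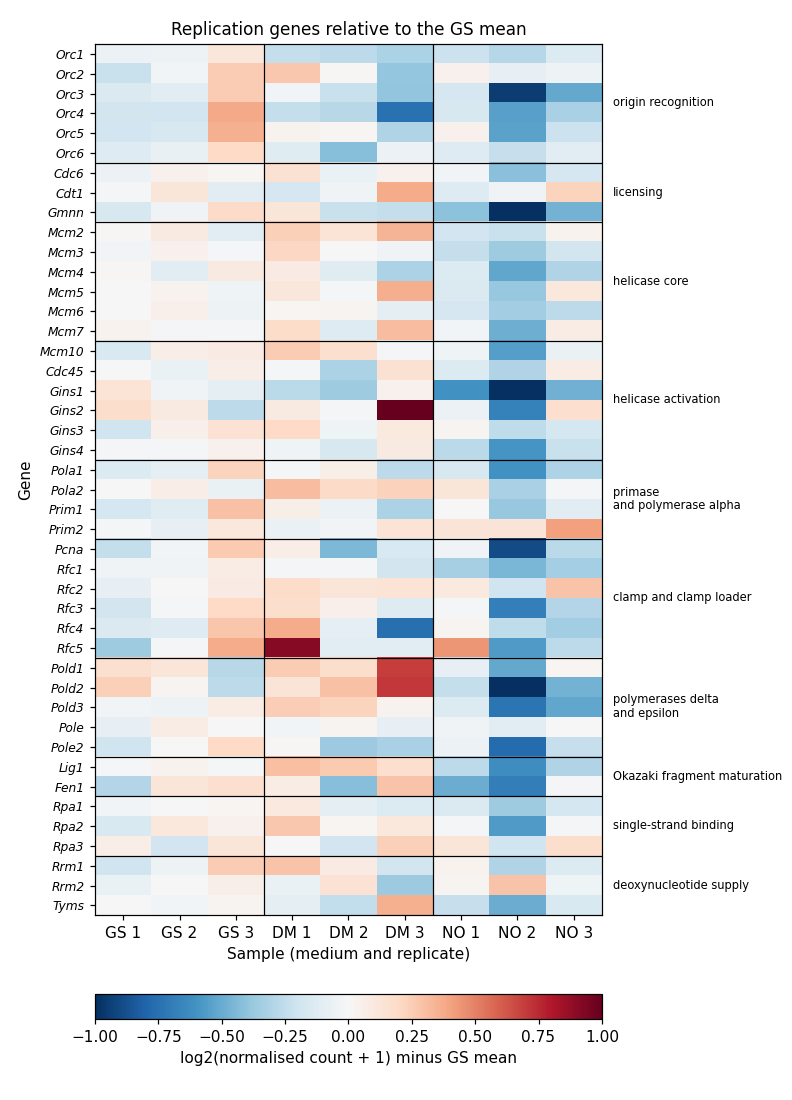
log2(normalised count + 1) of each replication gene in each sample minus the GS mean of that gene, with genes in rows by role and samples in columns (blue lower, red higher, colours end at -1 and 1). The column of NO replicate 2 is blue in most rows, with a median of -0.47, and the columns of the other samples are pale, apart from single values such as Gins2 in DM 3 and Rfc5 in DM 1.

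No replication gene changed past the test on release from the inhibitors and LIF. Between DM and GS, 0 of the 44 passed an adjusted p of 0.05 (limma with Benjamini-Hochberg adjustment over all tested genes), and the share among all tested genes was 6.69%. At an unadjusted p under 0.05 there was 1 gene, Orc1 (19.9% of all tested genes), and its adjusted p of 0.216 in limma was the smallest. The median log2 fold change was -0.01 over the set and -0.00 over all tested genes, with 22 genes above 0 and 22 below. The 95% confidence interval lay within a 2-fold change for 43 of the 44, with Gins2 the exception, and its median margin was 0.36 to each side on the log2 scale. The comparison thus bounds changes in DM without showing that levels were equal.

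The origin recognition genes were all below 0 in that comparison, without a call, and not all were so without GS replicate 3 or DM replicate 3. Orc1, an ATP-binding subunit, gave 2636, 2645 and 2973 normalised counts for GS, 2330, 2289 and 2207 for DM, and 2371, 2257 and 2492 for NO. All GS samples were above all others, and the log2 fold change of -0.27 ± 0.12 (SE) in DM did not pass the test. The other subunits, Orc2 to Orc6, had log2 fold changes of -0.42 to -0.04 in DM against GS, and the median over the 6 was -0.21. Without GS replicate 3, the highest sample for most of these genes and a setting chosen after seeing the data, it was -0.10, and Orc2 and Orc5 were above 0, as they were without DM replicate 3 (median -0.19). Orc4 was the other gene of the set whose DM values were all below those in GS (13.5% of all tested genes did so). Mcm2, Rfc2, Pola2, Pold1 and Lig1 had DM values all above those in GS (16.2% of all tested genes). Against NO, the origin recognition genes had a median of 0.03 for NO minus DM and no gene past the test.

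In NO, 6 replication genes fell in 1 of the comparisons, and none rose in any. Against GS, Gmnn, Gins1 and Rfc1 fell, 3 of 44, where 6.64% of all tested genes were lower, 13.4% higher and 20.0% either. Against DM, Pold2, Pold3 and Lig1 fell, again 3 of 44, where 5.24% of all tested genes were lower, 9.01% higher and 14.2% either. Among the 8083 genes with a mean at or above the lowest of the set, 11.3% were lower against GS and 8.34% against DM. The call in 1 comparison and not in the other was not itself tested as a difference. At an unadjusted p under 0.05 there were 9 genes against GS (34.6% of all tested genes) and 12 against DM (31.3%). By the F test over the 3 media Gins1, Pold2, Pold3 and Lig1 passed, 4 of 44 against a background of 23.3%. Without the second NO replicate, Gins1 remained against GS and Pold2 and Lig1 against DM, and with the replicate number as a block in addition 0 genes passed in each.

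The small downward offset was found in most genes of the set. The median log2 fold change against GS was -0.21, with 39 of the 44 genes (88.6%) below 0, while over all tested genes it was -0.02 with 51.3% below 0. Against DM the median was -0.26 with 37 genes (84.1%) below 0, while over all tested genes it was 0.00 with 49.9% below 0. By role, the medians against DM ran from 0.03 for origin recognition, with 4 of 6 genes above 0, to -0.57 for polymerases delta and epsilon. Over the 8083 genes with a mean at or above the lowest of the set, the medians were -0.13 against GS and -0.09 against DM, with 64.2% and 59.7% below 0. That bound is the mean of Fen1 (344.1), so these genes are not matched to the set in level. Without the second NO replicate the medians of the set were -0.11 (36 genes below 0) and -0.14 (31 genes below 0). With quantile normalisation they were -0.07 and -0.14, beside -0.11 and -0.08 over all tested genes, so that the offset against GS was then no longer below that of all genes. The NO values lay below all GS values in 14 genes (18.3% of all tested genes) and below all DM values in 15 genes (15.3%), above all GS values in 1 gene, Prim2 (20.9%), and above all DM values in 0 genes (18.1%).

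**Figure D3:**
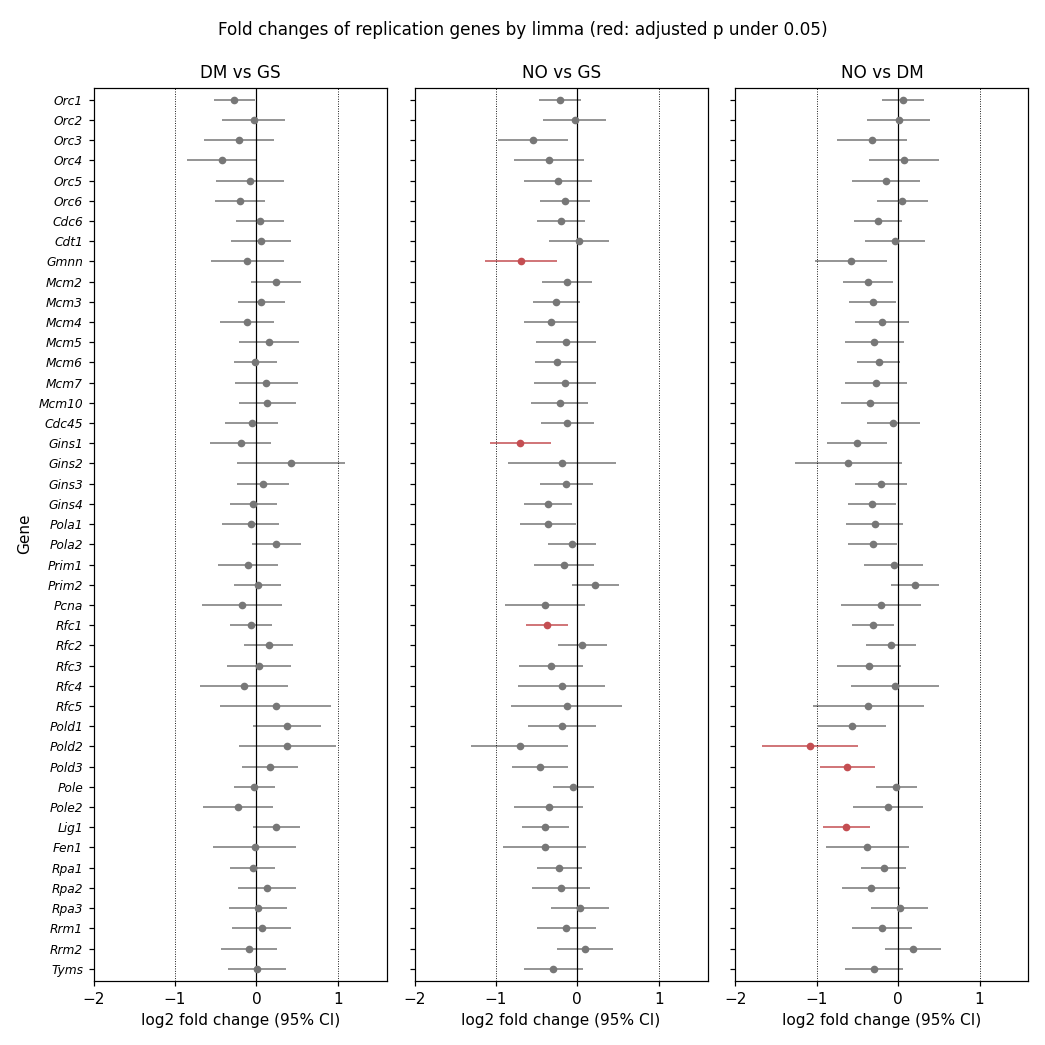
log2 fold change of each replication gene with its 95% confidence interval (limma) for DM against GS, NO against GS and NO against DM, with dotted lines at a 2-fold change and genes with an adjusted p under 0.05 in red. No gene is red in DM against GS, Gmnn, Gins1 and Rfc1 are red in NO against GS, and Pold2, Pold3 and Lig1 in NO against DM, while most NO estimates lie left of 0.

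Among the genes that license origins, Gmnn encodes geminin, the inhibitor that keeps Cdt1 from loading the helicase again after S phase has begun. Gmnn (chr13:24751845-24761923, GRCm38, minus strand) gave 1276, 1389 and 1627 normalised counts for GS, 1549, 1222 and 1208 for DM, and 1070, 625 and 1023 for NO. The NO values were below all others, and the GS and DM values overlapped. The log2 fold change was -0.69 ± 0.20 (SE) against GS (limma adjusted p = 0.0347) and -0.58 ± 0.20 against DM (limma adjusted p = 0.0779). The call against GS was lost without any 1 of the 3 GS replicates, without DM replicate 2 (limma adjusted p = 0.0505) or without NO replicate 2 (-0.44, limma adjusted p = 0.0835). Its partner Cdt1, which brings the helicase to origins, had 497 to 632 in NO, 505 to 590 in GS and 484 to 703 in DM, with overlap throughout. Cdc6, the loading ATPase, had 2220 to 2918 in NO, 2845 to 3054 in GS and 2830 to 3305 in DM.

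Within the helicase core no gene passed the test in any comparison. Mcm5, the most abundant, gave 22968, 23467 and 22155 normalised counts for GS, 24733, 22502 and 29413 for DM, and 20676, 17556 and 24586 for NO. The groups overlapped, and the log2 fold change against DM was -0.29 ± 0.17 (SE). All 6 core subunits were below 0 in both NO comparisons, with values of -0.32 to -0.13 against GS and -0.37 to -0.20 against DM. The NO values of Mcm3 and Mcm6 lay below all others, and those of Mcm2 below all in DM.

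Of the genes that activate the helicase, Gins1 fell. It encodes a subunit of GINS, the complex that holds Cdc45 to the Mcm ring. Gins1 (chr2:150905400-150931280, plus strand) gave 984, 875 and 837 normalised counts for GS, 745, 700 and 922 for DM, and 589, 442 and 643 for NO. The NO values were the 3 lowest, and the DM values overlapped those in GS. The log2 fold change was -0.70 ± 0.17 (SE) against GS (limma adjusted p = 0.0149) and -0.51 ± 0.17 against DM (limma adjusted p = 0.0681). Of the 9 left-out replicates, GS replicate 1 was the one whose absence ended the call (-0.63, limma adjusted p = 0.0627). Gins4, another subunit, had 2506, 2498 and 2614 in GS, 2469, 2270 and 2701 in DM, and 2104, 1687 and 2170 in NO, with no overlap between NO and the other media and limma adjusted p-values of 0.0779 and 0.124. Gins2 reached 2720 in a single DM sample and lay between 745 and 1349 in the other 8, and most of its exon bases are shared with Gse1. Gins3, Cdc45 and Mcm10 had log2 fold changes of -0.22 to -0.12 against GS.

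Primase and polymerase alpha showed no call. Pola1, the catalytic subunit, gave 3851, 3972 and 4944 normalised counts for GS, 4186, 4407 and 3525 for DM, and 3777, 2772 and 3410 for NO. Its NO values were below all in GS and overlapped those in DM, and the log2 fold change of -0.36 ± 0.16 (SE) against GS did not pass. Prim2, the large primase subunit, was the gene of the set with the highest estimate in NO, 0.22 ± 0.13 against GS and 0.21 ± 0.13 against DM, neither past the test. Pola2 had -0.07 and -0.31 in these comparisons, and Prim1, the catalytic primase subunit, -0.16 and -0.06.

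The clamp loader opens the PCNA ring and places it on DNA, and Rfc1 is its largest subunit. Rfc1 (chr5:65261850-65335670, minus strand) gave 5045, 5057 and 5444 normalised counts for GS, 5142, 5111 and 4567 for DM, and 4108, 3779 and 4089 for NO. The NO samples lay close together and below all 6 others. The log2 fold change was -0.38 ± 0.12 (SE) against GS (limma adjusted p = 0.0438) and -0.31 ± 0.12 against DM (limma adjusted p = 0.103). Among the 6 called replication genes it was kept in the fewest alternative settings, 6 of 21, and when replicates were left out in turn it held without NO replicate 1 or DM replicate 3, with limma adjusted p-values of 0.064 to 0.133 without each of the others. The smaller subunits Rfc2 to Rfc5 had -0.33 to 0.06 against GS, and none passed. Rfc5 ranged widely, from 2758 to 7708 over the 9 samples. Pcna had 7767, 9005 and 10979 in GS, 9582, 6692 and 8219 in DM, and 8954, 4935 and 7607 in NO, so that all media overlapped.

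Pold2, a regulatory subunit of polymerase delta, had the lowest estimate of the set in NO against DM. Pold2 (chr11:5872180-5878292, minus strand) gave 2685, 2322 and 1901 normalised counts for GS, 2494, 2794 and 3727 for DM, and 1935, 854 and 1645 for NO. All NO values were below all DM values, and the first NO replicate overlapped GS. The log2 fold change against DM was -1.08 ± 0.27 (SE; limma adjusted p = 0.0239), the only call of the set past 2-fold (8.55% of all tested genes passed it, and 1.77% did so downward), and -0.71 ± 0.27 against GS (limma adjusted p = 0.0869). The call against DM was lost without DM replicate 2 (limma adjusted p = 0.0599) or DM replicate 3 (limma adjusted p = 0.0779). The estimate was under 2-fold without DM replicate 3 (-0.92) or NO replicate 2 (-0.73).

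Pold3, an accessory subunit of the same polymerase that also binds PCNA, fell too. Pold3 (chr7:100082111-100121565, minus strand) gave 1870, 1838 and 1999 normalised counts for GS, 2249, 2216 and 1947 for DM, and 1731, 1146 and 1328 for NO. The NO values were below all others. The log2 fold change was -0.63 ± 0.16 (SE) against DM (limma adjusted p = 0.023) and -0.46 ± 0.16 against GS (limma adjusted p = 0.0566). The call against DM was lost without DM replicate 1 or 2 or NO replicate 2 or 3, with limma adjusted p-values of 0.0623 to 0.0785. Pold1, the catalytic subunit, had 4397, 4167 and 5965 in DM and 3490, 2581 and 3745 in NO, without overlap, and did not pass (limma adjusted p = 0.0692). The subunits of polymerase epsilon differed in size of estimate. Pole, its catalytic subunit, lay between 3648 and 4150 in all 9 samples, with -0.02 ± 0.11 against DM, and Pole2 had -0.13 ± 0.20.

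Lig1, the ligase that seals nicks between Okazaki fragments, had the smallest adjusted p of the set. Lig1 (chr7:13277283-13311433, plus strand) gave 7529, 7780 and 7524 normalised counts for GS, 9377, 9124 and 8544 for DM, and 6355, 4943 and 6190 for NO. The 3 media did not overlap, with DM highest and NO lowest. The log2 fold change was -0.64 ± 0.13 (SE) in NO against DM (limma adjusted p = 0.012), -0.39 ± 0.13 in NO against GS (limma adjusted p = 0.0581), and 0.24 ± 0.13 in DM against GS (limma adjusted p = 0.346). The call against DM was kept in 21 of 22 alternative settings. Of its exon bases, 5.79% overlap Zswim9. Fen1, the flap nuclease, had 229 to 451 over all samples, and 84.2% of its exon bases overlap other genes.

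**Figure D4:**
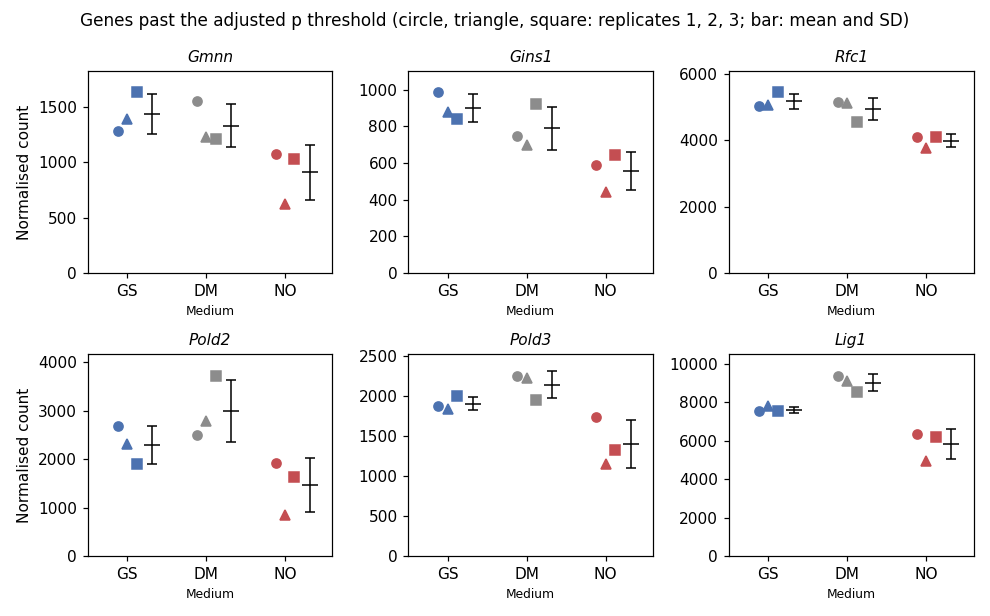
Normalised counts of Gmnn, Gins1, Rfc1, Pold2, Pold3 and Lig1 in each sample by medium, with replicates 1, 2 and 3 as circle, triangle and square, and the mean and SD (n = 3) beside them. The NO points are the lowest in each panel except for Pold2, where NO replicate 1 (1935) lies above GS replicate 3 (1901), and NO replicate 2 is the lowest point of all.

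Genes for single-strand binding and deoxynucleotide supply showed no call. Rpa1, the large subunit of replication protein A, gave 7523, 7674 and 7762 normalised counts for GS, 8170, 7172 and 6945 for DM, and 6925, 5980 and 6779 for NO. Its NO values were below all others, with a log2 fold change of -0.22 ± 0.13 (SE) against GS that did not pass. Rpa2 had -0.33 ± 0.16 against DM, and Rpa3 0.02 ± 0.16. Rrm2, the small subunit of ribonucleotide reductase, had 8519, 8919 and 9268 in GS, 8499, 9846 and 6904 in DM, and 9069, 10853 and 8645 in NO. The media overlapped, and here the second NO replicate was the highest of all 9 samples. Rrm1, the large subunit, and Tyms, thymidylate synthase, had -0.13 ± 0.17 and -0.29 ± 0.16 against GS.

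The other genes of the pathway were read against the same shares of all tested genes, 6.69% in DM against GS and 6.64% and 5.24% lower in NO against GS and DM. None of 9 origin firing genes (among them Cdc7 and Dbf4), 7 fork protection and loader genes or 6 references of proliferating cells (Mki67, Top2a, Ccnb1, Cdk1, Aurka and Plk1) passed in any comparison, with 1, 1 and 2 results, respectively, at an unadjusted p under 0.05 over the 3 comparisons. Of 8 remaining polymerase and flap-processing subunits, Dna2, a nuclease and helicase, was lower in DM than in GS (-0.49 ± 0.13, limma adjusted p = 0.0414, and 0.0745 with the replicate block), and Rnaseh2a, a subunit of the enzyme that cuts RNA in hybrids, lower in NO than in DM (-0.68 ± 0.18, limma adjusted p = 0.0291). Exons of Rnaseh2a overlap Gm49661 and Prdx2 over 14.7% of their bases. Of 9 other nucleotide supply genes, 0 passed in DM against GS, 2 fell in NO against GS and 1 in NO against DM, with median log2 fold changes of -0.18, -0.40 and -0.36. Dut, the enzyme that removes dUTP, gave 3158, 3444 and 3453 normalised counts for GS, 2608, 2669 and 2488 for DM, and 2161, 1755 and 2171 for NO. The media did not overlap, GS being highest and NO lowest, and the change in NO against GS (-0.73 ± 0.13, limma adjusted p = 0.00287) was kept in 21 of 21 alternative settings. Dctd, dCMP deaminase, fell in NO against GS (-0.77 ± 0.22, limma adjusted p = 0.03) and against DM (-0.85 ± 0.22, limma adjusted p = 0.0273).

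Of 9 genes of replication-coupled chromatin assembly, 0 passed in DM against GS, 1 fell in NO against GS and 2 in NO against DM, with medians of 0.01, -0.34 and -0.39. Chaf1b, a subunit of the histone chaperone CAF-1, and Cdca7 fell in NO against DM (-0.76 ± 0.19 and -0.71 ± 0.19, limma adjusted p = 0.0249 and 0.029). Uhrf1, which brings DNA methylation to new strands, fell against GS (-0.56 ± 0.18, limma adjusted p = 0.0472, and 0.0535 with the replicate block), a call kept in 5 of 21 alternative settings. Of the 3 relatives of the Mcm family, Mcmdc2 fell in NO against GS (-1.12 ± 0.34, limma adjusted p = 0.0361) from a low level, 190 to 254 normalised counts in GS and 63 to 187 in NO. Without NO replicate 2 the calls of Rnaseh2a, Dctd, Cdca7, Uhrf1 and Mcmdc2 in NO were lost, with log2 fold changes of -0.49 for Rnaseh2a, -0.53 and -0.61 for Dctd, -0.47 for Cdca7, -0.36 for Uhrf1 and -0.77 for Mcmdc2, and each was lost without some other replicates as well. The call of Chaf1b was lost without any 1 of the DM replicates (limma adjusted p = 0.0588 to 0.0724), and that of Cdca7 also without DM replicate 1 or 3 or NO replicate 3. Uhrf1 held without DM replicate 3 or NO replicate 1, and was lost without each other replicate. Leaving out each GS or DM replicate in turn, or NO replicate 3, also ended the call of Dna2.

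Of 22 regulators of the G1 to S step, 2 were higher and 1 lower in DM against GS, 3 higher and 2 lower in NO against GS, and 3 higher and 4 lower in NO against DM, beside 6.69%, 20.0% and 14.2% of all tested genes that passed in these comparisons. Rb1, which binds E2F factors and holds back S phase genes, gave 103, 99 and 119 normalised counts for GS, 91, 104 and 102 for DM, and 294, 1047 and 437 for NO. All NO values were above all others, with the second NO replicate far above its partners, and the log2 fold change was 2.25 ± 0.36 (SE) against GS (limma adjusted p = 0.00182) and 2.36 ± 0.36 against DM (limma adjusted p = 0.00336). Of its exon bases, 14.9% overlap Rcbtb2 or Lpar6. Its relative Rbl2, named after its values were seen, had 322 to 359 in GS, 339 to 472 in DM and 578 to 1056 in NO, and rose in both NO comparisons (1.11 ± 0.21 and 0.90 ± 0.21, limma adjusted p = 0.00481 and 0.02). Exons of Rbl2 overlap Aktip and Gm45464 over 21.0% of their bases. The other calls against GS in NO were Cdkn1c (1.85), E2f3 (-0.57) and Fbxo5 (-0.52). Against DM, apart from Cdkn1a, E2f2 and E2f8 (below), they were E2f4 (-0.54) and Ccne1 (-0.82). These values are log2 fold changes and were not tried in other settings. Cdkn1a, E2f2 and E2f8 did not pass in NO against GS (limma adjusted p = 0.951, 0.352 and 0.943).

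Cdkn1a, the p21 inhibitor of cyclin-dependent kinases, and 2 E2F genes differed in DM. Cdkn1a gave 3839, 3758 and 3288 normalised counts for GS, 1462, 1487 and 1976 for DM, and 2535, 4859 and 3663 for NO. DM was below all others, with -1.15 ± 0.21 against GS (limma adjusted p = 0.0071), and NO was above DM by 1.13 ± 0.21 (limma adjusted p = 0.00801). E2f2, an activating E2F, had 373 to 433 in GS, 667 to 742 in DM and 387 to 542 in NO, and E2f8, a repressing E2F, 382 to 479, 726 to 789 and 367 to 496. Both rose in DM against GS (0.83 ± 0.15 and 0.80 ± 0.16, limma adjusted p = 0.00728 and 0.00923) and fell in NO against DM (-0.62 ± 0.15 and -0.82 ± 0.16, limma adjusted p = 0.0239 and 0.00797), and the fall of E2f2 was lost without NO replicate 2 or 3 or any 1 of the DM replicates. In the same comparisons the replication genes above had medians of -0.01 in DM against GS and -0.26 in NO against DM. Exons of E2f8 overlap Gm2788 over 11.2% of their bases, and those of Cdkn1a overlap AC167363.2 over 7.68%.

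**Figure D5:**
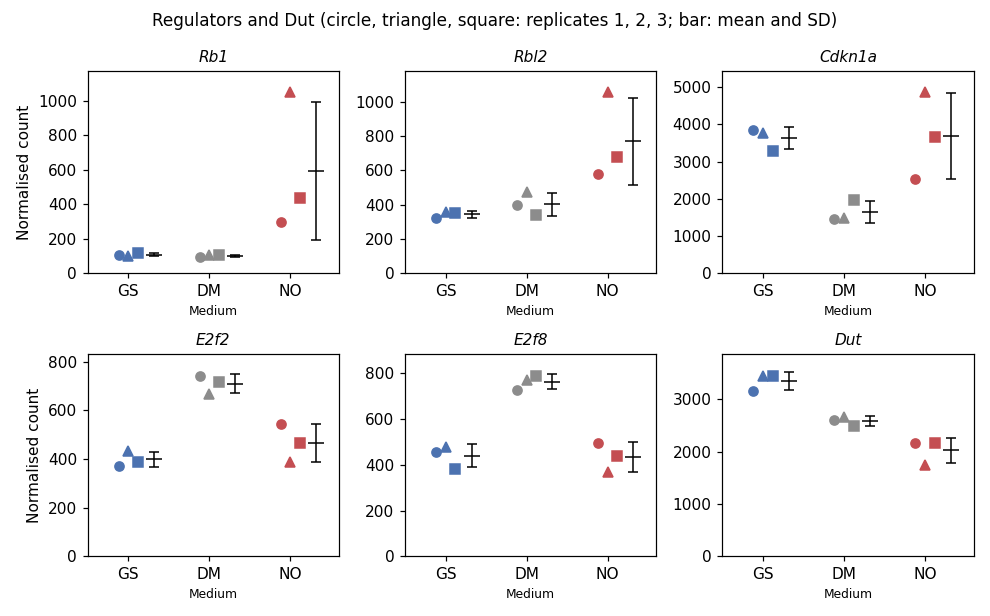
Normalised counts of Rb1, Rbl2, Cdkn1a, E2f2, E2f8 and Dut in each sample by medium, with replicates 1, 2 and 3 as circle, triangle and square, and the mean and SD (n = 3) beside them. Rb1 and Rbl2 are highest in NO, with NO replicate 2 on top (1047 and 1056), E2f2 and E2f8 are highest in DM, Cdkn1a is lowest in DM, and Dut descends from GS to DM to NO.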

How the data were processed

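Total RNA-Seq libraries of mESC in GS, DM and NO (3 each) were analysed. After ribosomal depletion and Ion Torrent Proton sequencing, the authors used Reaper for trimming, STAR 2.4.0a for alignment to GRCm38 and, to count exon reads, featureCounts 1.4.5-p1, which left out ambiguous reads. Use of the strand is not given in the sources used here, so whether reads from exons that overlap on opposite strands were counted or left out is not known. Each deposited value is a normalised count (a score, not a raw count): reads per gene that the authors scaled by DESeq2 size factors and rounded to whole numbers, so no count test was run. Columns were matched to samples by title, and 1 deposited column belongs to no sample.

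Genes with a mean over 5 were tested in a limma 3.58.1 fit (R 4.3.3) of log2(value + 1) over all 9 samples, with trended moderation and Benjamini-Hochberg adjustment over 18156 genes. A gene rose or fell at an adjusted p under 0.05. Each fold change refers to log2(value + 1). The spacing of the values gave an estimate of depth, and intervals cover the spread between samples. Scripts were tested on simulated data. Annotation was GENCODE for GRCm38. Deviations of same-numbered samples correlated at 0.16, 0.17 and 0.30 between NO and DM, and at -0.23 to 0.05 in the other comparisons. No label states a shared batch, and differently numbered samples were not compared, so these values do not show that samples were paired. Values in every sample are given for genes past the threshold and, in roles without any, for the most abundant gene. By the rule set beforehand, other lists name at most 4 called genes each, and the further regulators of G1 to S were added to it. The replication genes, the lists and the tests were chosen with earlier results of these data known. Other scalings, filters, moderation and left-out replicates were tried.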

Additional observations from a re-analysis of the deposited data

How the results depend on the processing

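Of 1472 alternative values for 69 results of named genes, 1315 kept their direction and side of the threshold, 126 lost it, 11 passed it and 20, none of them called, changed sign. The 126 belong to called results alone, while the 1315 include uncalled results that stayed uncalled. Among called results, the settings that kept the call ran from 5 of 21 (Uhrf1 in NO against GS) to 21 of 21 (such as Dut in NO against GS). DM against GS gave 0 genes of the 44 in every setting. The 3 genes in NO against GS became 2 with the replicate block (Gmnn and Gins1, without Rfc1), 1 (Gins1) with no minimum mean, equal totals, quantile normalisation, moderation without a trend or the 6 samples alone, and 0 at 2-fold or, in a setting added after seeing the data, with the block and without NO replicate 2. Leaving out a replicate gave 0 (without GS replicate 1) to 7 (without NO replicate 1). The 3 genes in NO against DM stayed 3, and the same genes, with the replicate block, became 1 without a trend, in 6 samples alone or at 2-fold, and 0 with the block and without NO replicate 2. Leaving out a replicate gave 1 (without DM replicate 2) to 4 (without NO replicate 1). The F test's 4 genes became 5 with the replicate block, 2 with equal totals, 1 with quantile normalisation or without a trend, 0 with the block and without NO replicate 2, and 1 to 6 when a replicate was left out. Where no cause is named, the cause was not tested. Medians over the set ranged from -0.04 to 0.05, -0.29 to -0.07 and -0.33 to -0.14 in DM against GS, NO against GS and NO against DM.

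Signs changed in NO against GS for Cdkn1a (0.0857 with equal totals, 0.0264 with upper quartiles, 0.122 with quantile normalisation, -0.248 to 0.221 with a replicate left out), E2f8 (0.0888 with equal totals, 0.0296 with upper quartiles, -0.123 to 0.0933 with a replicate left out, 0.132 with the block and without NO replicate 2), Mcm5 (0.181 with quantile normalisation) and Rrm2 (-0.0069 to 0.157 with a replicate left out). They changed in DM against GS for Rpa1 (0.006 with quantile normalisation, -0.117 to 5e-04 with a replicate left out) and, with a replicate left out, for Pola1 (-0.14 to 0.0401), Rrm2 (-0.216 to 0.0401) and Dctd (-0.112 to 0.184). With 3 samples per medium, the median 95% interval of a replication gene spans 0.36 to each side on the log2 scale, with wider intervals for genes such as Gins2 and Rfc5.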
